A study of Mus musculus with 6 samples.

Results

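A set of 10 genes known as regulators or markers of haematopoietic stem cells was followed in LSK cells. LSK cells are lineage-negative, Sca-1 positive and c-Kit positive cells of the bone marrow. The 10 genes, out of 24063 gene symbols in the count files, were chosen by name: the transcription factors and chromatin proteins *Hlf*, *Mycn*, *Prdm16*, *Mecom*, *Gfi1*, *Hmga2* and *Mllt3*, and *Fgd5*, *Ctnnal1* and *Pdzk1ip1*, which code for signalling, adhesion-related and membrane proteins and are known as stem cell markers. No measured value entered that choice, although it was made with earlier results of the same data known. RNA-seq had been performed on LSK cells of 3 Asxl2-/- and 3 wild type (Asxl2wt/wt) C57BL/6 mice. Per the methods of the study, both groups carried the *Mx1*-cre transgene and the cells were sorted several weeks after pIpC was injected. This double-stranded RNA analogue induces the interferon-responsive *Mx1* promoter and so the Cre recombinase that deletes the floxed *Asxl2* alleles, and the wild type animals received the same treatment. *Mx1*-cre is active in haematopoietic cells and also in other interferon-responsive cells, so the deletion is not limited to stem cells. LSK cells are a mixture of long-term stem cells and multipotent progenitors, and in such bulk RNA more cells of a kind and more RNA per cell cannot be told apart.

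Long-term stem cells divide rarely and renew themselves, and some of their transcriptional regulators are expressed mainly in them and lost as cells commit to a lineage. HLF is a PAR bZIP factor, MECOM and PRDM16 are related zinc finger proteins of the PRDM family, and GFI1 is a zinc finger repressor that restrains stem cell proliferation. MYCN acts beside MYC in stem cells, MLLT3 (AF9) reads acylated histones as a part of elongation complexes, and HMGA2 is a DNA-bending chromatin protein best known from fetal stem cells. ASXL2, the protein removed here, is a partner of the histone H2A deubiquitinase BAP1.

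The libraries held between 25528540 and 55032075 counts in genes, and between 16467 and 17327 genes had at least 1 count. The files were of 2 kinds: Asxl2-/- replicates 1 and 3 and wild type replicate 2 gave 1 count per transcript, and Asxl2-/- replicate 2 and wild type replicates 1 and 3 gave 1 count per exon, in which a read over a splice junction can be counted more than once. Levels are given as CPM, counts relative to the library size after scaling with TMM normalisation factors, and were compared within a kind, or in a fit with the kind as a covariate. The total count of *Asxl2* gave no check of the deletion (log2 fold change 0.11, adjusted p = 0.469), but its exon 11 held 28 of 4804 counts in the knockout library with per-exon counts, a share of 0.583%, against 10.3% and 12.0% in the 2 wild type libraries. The other 2 knockout libraries cannot be checked in this way. The 4 Y-linked genes examined had at most 2 counts in each knockout library and at least 1026 in each wild type library. *Xist* had at least 49540 counts in each knockout library and 3194, 590 and 615 in wild type replicates 1 to 3. In CPM these wild type values were 61.3, 20.5 and 13.0, and why replicate 1 was higher was not tested. Sex and genotype thus cannot be told apart in any result below. Of the genes of the sort gate, *Kit* and *Ptprc* had log2 fold changes of 0.23 (adjusted p = 0.453) and 0.04 (adjusted p = 0.835), and *Ly6a*, which codes for Sca-1, had a log2 fold change of -1.34 with an adjusted p of 0.187. The CPM values of *Ly6a* were 52.6, 69.1 and 57.6 in Asxl2-/- and 40.5, 260 and 148 in wild type replicates 1 to 3. Its difference was -2.24 within the per-transcript and -0.16 within the per-exon files.

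Of the 10 genes, 9 had a positive log2 fold change in Asxl2-/- LSK cells and *Hmga2* had a negative one. *Prdm16* and *Ctnnal1* rose and *Hmga2* fell past an adjusted p of 0.05 (edgeR quasi-likelihood test, two-sided, Benjamini-Hochberg over the 14145 genes tested). *Mycn*, *Fgd5* and *Pdzk1ip1* had fold changes of 2.75, 3.33 and 2.94 and adjusted p-values between 0.0528 and 0.0664. *Hlf*, *Mecom*, *Mllt3* and *Gfi1* did not pass. Across all genes tested, 2.04% were raised and 0.304% lowered at this threshold, and 2.34% were called in either direction, against 2 raised and 1 lowered of the 10 genes here. At an unadjusted p under 0.05, 6 of the 10 passed, as did 27.7% of all genes tested. The median log2 fold change was 1.23 over the 10 genes, all of which passed the low-count filter, and 0.000523 over all genes tested. The count of 3 rests on single libraries: it was 0 without Asxl2-/- replicate 1 or without wild type replicate 3 (with 6 at an unadjusted p under 0.05 in either case), 1 without Asxl2-/- replicate 3, 5 without Asxl2-/- replicate 2 and 6 without wild type replicate 1. Asxl2-/- replicate 2 and wild type replicate 2 are each the only library of their group and kind of file. Without either, the fitted difference comes from the other kind of file alone. With DESeq2 in place of edgeR the count was 7, and with library size as the only scaling it was 1. The calls among all 14145 genes tested moved too, to 2329 with DESeq2 and 161 with library size only. They also moved with 1 library left out, as given in the last section, so these counts cannot be set beside 2.34%.

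**Figure D1:**
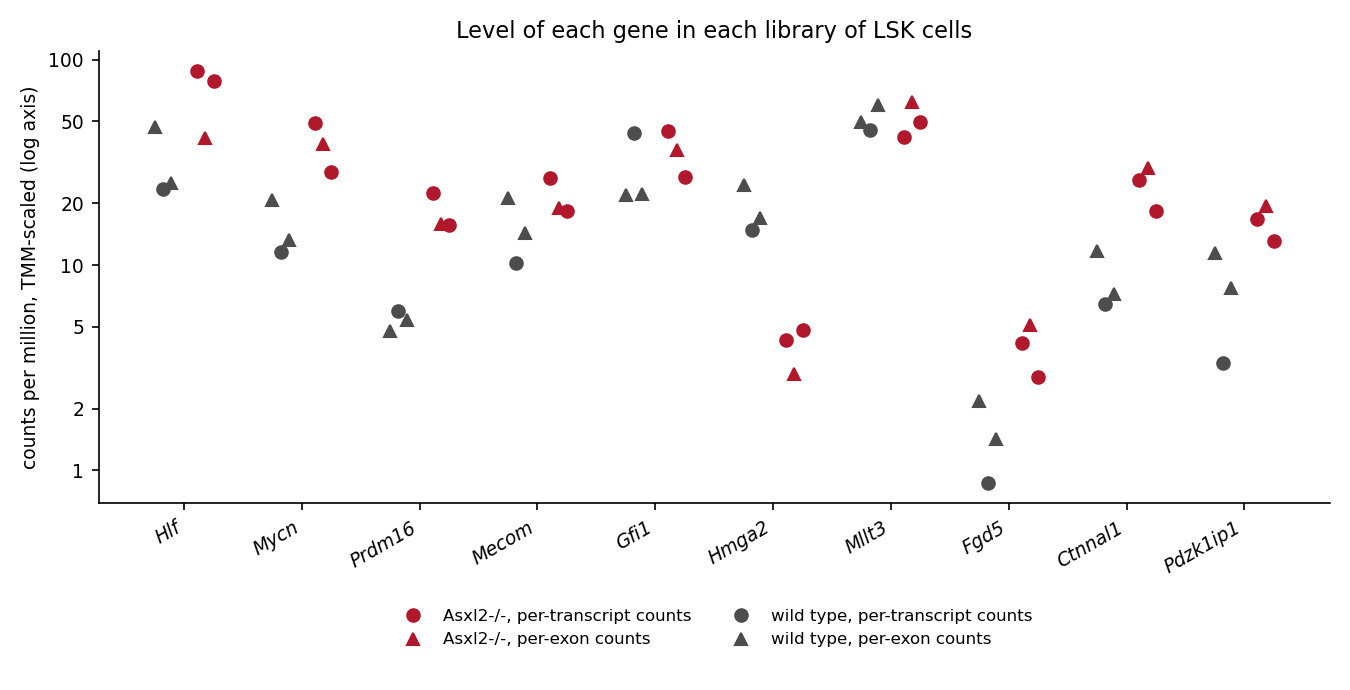
Levels in CPM (log axis) of the 10 genes in each of the 6 libraries; grey marks are wild type, red marks Asxl2-/-, circles per-transcript and triangles per-exon count files. Like symbols can be compared directly: red lies above grey of the same shape for *Mycn*, *Prdm16*, *Fgd5*, *Ctnnal1* and *Pdzk1ip1*, and below it for *Hmga2*.

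Read within each kind of file, 5 of the 10 genes were higher in every Asxl2-/- library than in every wild type library of that kind (*Mycn*, *Prdm16*, *Fgd5*, *Ctnnal1* and *Pdzk1ip1*), and 1 was lower (*Hmga2*). With so few libraries such an arrangement is common: 25.4% of all genes tested were arranged in the first way and 23.3% in the second.

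The promoters of 4 genes are shown, since these genes were higher in Asxl2-/- cells in both kinds of file and their listed transcripts begin at a RefSeq start site. Each line gives the 250 bases upstream of the start, 5′ to 3′ on the strand of the gene, from RefSeq on GRCm38.p6 (mm10), with capitals marking matches to the motifs searched on either strand.
Prdm16 (chr4:154636874-154637123, minus strand): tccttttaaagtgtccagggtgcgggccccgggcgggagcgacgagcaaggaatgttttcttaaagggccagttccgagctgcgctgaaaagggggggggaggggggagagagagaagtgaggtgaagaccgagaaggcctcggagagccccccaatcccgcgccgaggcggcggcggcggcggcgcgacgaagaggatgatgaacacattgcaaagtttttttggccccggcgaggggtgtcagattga
Ctnnal1 (chr4:56865212-56865461, minus strand): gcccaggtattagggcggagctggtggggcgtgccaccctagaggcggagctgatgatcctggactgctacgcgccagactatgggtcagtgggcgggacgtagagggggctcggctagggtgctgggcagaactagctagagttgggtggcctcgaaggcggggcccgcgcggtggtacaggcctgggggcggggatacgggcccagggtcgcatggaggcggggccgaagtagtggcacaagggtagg
Mycn (chr12:12941837-12942086, minus strand): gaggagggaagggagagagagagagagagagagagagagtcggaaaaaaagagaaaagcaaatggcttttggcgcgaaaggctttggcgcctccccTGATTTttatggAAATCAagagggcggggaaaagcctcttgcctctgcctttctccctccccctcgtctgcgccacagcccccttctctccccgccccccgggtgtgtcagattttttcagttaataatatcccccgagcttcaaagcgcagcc
Pdzk1ip1 (chr4:115088458-115088707, plus strand): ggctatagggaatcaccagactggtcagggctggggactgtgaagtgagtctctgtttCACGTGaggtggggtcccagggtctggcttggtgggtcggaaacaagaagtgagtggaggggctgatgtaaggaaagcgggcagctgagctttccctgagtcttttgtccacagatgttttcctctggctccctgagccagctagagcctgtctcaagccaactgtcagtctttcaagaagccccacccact
The capitals in *Mycn* are AAATCA, the core bound by GFI1, as printed at position -142 relative to the start and on the opposite strand at position -154, and 14.0% of the 32851 promoter windows of 300 bases (250 before and 50 after the start) held at least 1 such match. The capitals in *Pdzk1ip1* are an E-box, CACGTG, at position -192, present in 7.15% of windows. The *Prdm16* and *Ctnnal1* windows held no match to any motif searched. No window of any of the 10 genes held the letters TGTGGT of RUNX factors, which 16.8% of all windows held. The same was true of AGATAA, read by factors of the GATA family and held by 11.2% of all windows. It was also true of the D-boxes of PAR bZIP factors such as HLF, TTACGTAA or TTATGTAA, held by 1.06% of windows. An ETS core, CGGAAG, was present once at the internal start of *Mecom* and once at that of *Gfi1*, and in 16.9% of all windows. The upstream start of *Mecom* held 1 match to the GFI1 core. A match of letters describes the sequence and does not show binding.

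*Hlf*, on chr11:90336535-90390917 of mm10, was measured at 87.8, 41.6 and 78.9 CPM in Asxl2-/- replicates 1 to 3. It was at 47.0, 23.4 and 25.1 CPM in wild type replicates 1 to 3. In the per-transcript files both knockout libraries lay above the wild type library, whereas in the per-exon files the knockout library (41.6) lay between both wild type libraries (47.0 and 25.1). *Hlf* had a log2 fold change of 1.01 (SE 0.445) with an adjusted p of 0.203, and its 95% interval reached from -0.08 to 2.09. The difference was 1.83 on the log2 scale within the per-transcript files and 0.28 within the per-exon files. It thus rested on the per-transcript files, in which wild type replicate 2 is the only control. Without that library, which leaves the per-exon files alone to give the difference, the log2 fold change was 0.20. Without Asxl2-/- replicate 2, which leaves the per-transcript files alone, it was 1.83.

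*Mycn* (chr12:12936093-12941836) separated the groups more evenly. Its CPM values were 49.1, 38.7 and 28.5 in Asxl2-/- and 20.8, 11.6 and 13.2 in wild type cells. Every knockout library lay above every wild type library, whichever kind of file was read. The log2 fold change of 1.46 (SE 0.301), 1.69 within per-transcript and 1.22 within per-exon files, had an adjusted p of 0.0647. Leaving out wild type replicate 1, the highest of the 3 controls, brought it to 1.66 (adjusted p = 0.0414). *Myc* itself, the family member used by cycling progenitors, had a log2 fold change of -0.04 (adjusted p = 0.804) and was read for comparison with *Mycn*, outside the naming rule.

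Of the PRDM proteins, *Prdm16* (chr4:154316125-154636873), a regulator of stem cell maintenance, showed the smallest spread of the 10 genes among the wild type libraries. It was measured at 22.4, 15.9 and 15.6 CPM in Asxl2-/- and at 4.76, 5.94 and 5.40 CPM in wild type cells. The lowest knockout library lay far above the highest control. *Prdm16* was 3.16-fold higher in Asxl2-/- LSK cells (log2 fold change 1.66, SE 0.186, adjusted p = 0.0196), and the within-kind differences on the log2 scale, 1.65 and 1.64, were nearly equal. It passed the threshold in 17 of 19 alternative fits, and missed it without Asxl2-/- replicate 1 (adjusted p = 0.0695) and without wild type replicate 3 (0.116).

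*Mecom* encodes EVI1 from an internal start and the longer MDS1-EVI1 protein, which carries the PR domain, from an upstream start. The EVI1 transcript used here (chr3:29951296-30013204) had 26.4, 19.0 and 18.4 CPM in Asxl2-/- and 21.2, 10.2 and 14.3 CPM in wild type cells. The groups overlapped in the per-exon files, where wild type replicate 1 lay above Asxl2-/- replicate 2. This gave a log2 fold change of 0.60 (SE 0.317, adjusted p = 0.266), with 1.10 within the per-transcript and 0.12 within the per-exon files, and it was 0.09 without wild type replicate 2. A second listed transcript begins at the upstream start (chr3:30236569-30509487) and shares no listed exon span with the first. It had 65, 50 and 29 counts in Asxl2-/- and 77, 25 and 35 in wild type cells, or between 4.72% and 8.03% of the counts of both in Asxl2-/- and between 4.90% and 7.81% in wild type libraries. These ranges overlapped, and its log2 fold change as a feature of its own was 0.33 (SE 0.558, adjusted p = 0.736). The upstream transcript has 1075 exon bases and the first one 4429. Reads of the longer form that fall in exons of the first transcript are counted there. These shares of counts are therefore no shares of molecules.

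*Gfi1* (chr5:107716655-107724343) was the gene whose within-kind differences pointed in opposite directions. It was measured at 44.9, 36.3 and 26.9 CPM in Asxl2-/- and at 21.9, 43.9 and 22.1 CPM in wild type cells. In the per-transcript files wild type replicate 2 lay between both knockout libraries, and in the per-exon files both controls lay below the knockout library. The fitted log2 fold change was 0.22 (SE 0.276, adjusted p = 0.637), made up of -0.34 within per-transcript and 0.72 within per-exon files.

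*Hmga2* (chr10:120361275-120476935) had the largest difference of the 10 genes in either direction. Only 122, 157 and 137 counts were found in Asxl2-/- libraries, against 1276, 425 and 804 in wild type libraries, or 4.33, 2.95 and 4.83 against 24.5, 14.8 and 17.0 CPM. Every knockout value lay far below the lowest control value. The log2 fold change was -2.25 (SE 0.314, adjusted p = 0.0319), which leaves the gene at 0.211 of its wild type level, with -1.68 within per-transcript and -2.77 within per-exon files. The call was lost without Asxl2-/- replicate 1 (adjusted p = 0.111), without Asxl2-/- replicate 3 (0.0606), without wild type replicate 3 (0.133) and with library size as the only scaling (0.0606).

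*Mllt3* (chr4:87769925-88033407) had the smallest fold change of the 10 genes. It had 42.1, 62.4 and 49.5 CPM in Asxl2-/- and 49.6, 45.3 and 60.2 CPM in wild type cells, and the 2 groups overlapped in the per-transcript files. The log2 fold change was 0.10 (SE 0.122, adjusted p = 0.622) with a 95% interval from -0.20 to 0.40, which does not reach the estimates of *Prdm16* or *Mycn*. Without the covariate for the kind of file the value was -0.01.

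The 3 genes that serve as markers of long-term stem cells rather than as transcriptional regulators lay close together in their fold changes. *Fgd5* (chr6:91987110-92076005), which codes for an exchange factor of the small GTPase CDC42 and whose locus is used for stem cell reporter mice, had the lowest counts of the 10 genes in wild type cells. Its counts were 118, 271 and 81 in Asxl2-/- and 113, 25 and 67 in wild type cells, or 4.19, 5.09 and 2.86 against 2.17, 0.868 and 1.41 CPM. In each kind of file all knockout values lay above all wild type values. *Fgd5* had a log2 fold change of 1.74 (SE 0.319, adjusted p = 0.0528), or 1.94 without wild type replicate 1 (adjusted p = 0.0398).

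*Ctnnal1* (chr4:56810935-56865211), which codes for alpha-catulin, a relative of alpha-catenin used as a stem cell reporter locus, had 26.1, 29.6 and 18.3 CPM in Asxl2-/- and 11.7, 6.43 and 7.21 CPM in wild type cells. The groups did not overlap in either kind of file. *Ctnnal1* was 3.28-fold higher in Asxl2-/- cells (log2 fold change 1.71, SE 0.245, adjusted p = 0.0319), with 1.76 within per-transcript and 1.68 within per-exon files. It missed the threshold without Asxl2-/- replicate 1 (adjusted p = 0.107), Asxl2-/- replicate 3 (0.0613), wild type replicate 2 (0.0967) or wild type replicate 3 (0.127), and with library size as the only scaling (0.0559).

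*Pdzk1ip1* (chr4:115088708-115093894), which codes for the small membrane protein MAP17, had 16.8, 19.5 and 13.1 CPM in Asxl2-/- and 11.5, 3.33 and 7.72 CPM in wild type cells. All 3 knockout libraries were above all 3 controls, although wild type replicate 1 came close to Asxl2-/- replicate 3, a library of the other kind. The log2 fold change of 1.56 (SE 0.327) had an adjusted p of 0.0664, with 2.14 within per-transcript and 1.04 within per-exon files. It passed without Asxl2-/- replicate 2 (2.16, adjusted p = 0.0275) and without wild type replicate 1 (1.78, adjusted p = 0.0398).

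**Figure D2:**
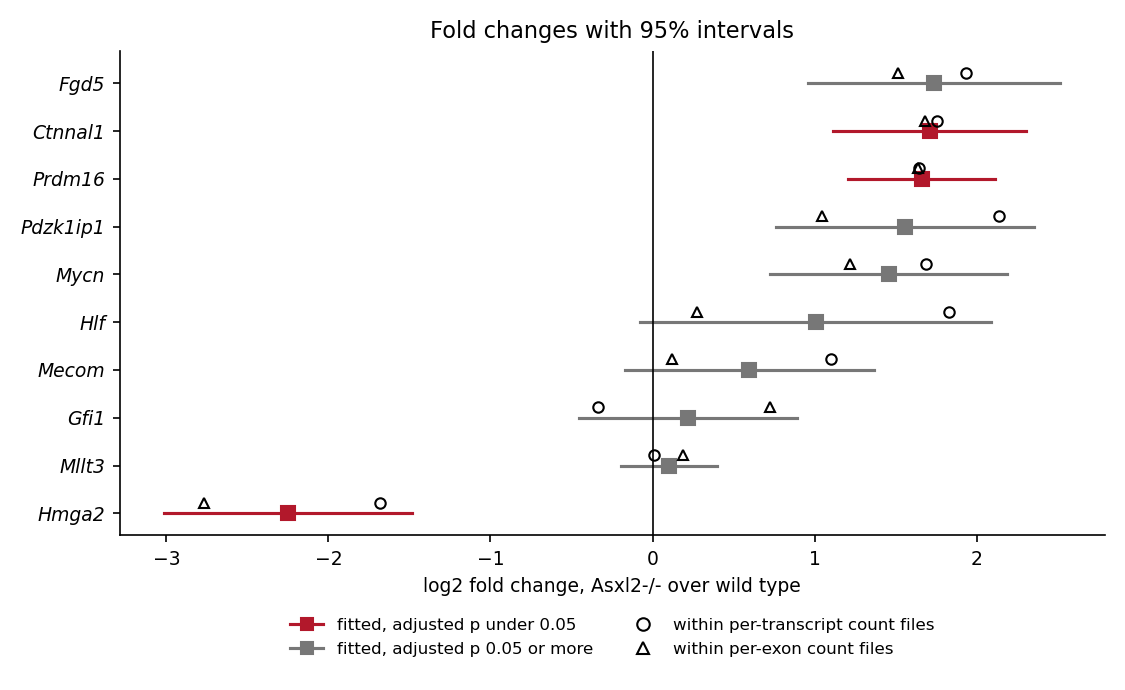
Log2 fold changes of the 10 genes, Asxl2-/- over wild type, with 95% intervals (squares and bars; red where the adjusted p is under 0.05); open circles and triangles are the differences within per-transcript and per-exon count files. The 2 within-kind values nearly coincide for *Prdm16* (1.65 and 1.64) and *Ctnnal1* (1.76 and 1.68) and lie far apart for *Hlf* (1.83 and 0.28).

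Replicates that share a kind of file can be compared directly. Wild type replicate 1 was above wild type replicate 3, the other control with per-exon counts, in CPM of 7 of the 10 genes (*Hlf*, *Mecom*, *Mycn*, *Fgd5*, *Ctnnal1*, *Pdzk1ip1* and *Hmga2*). Asxl2-/- replicate 1 was above Asxl2-/- replicate 3 in 8 of the 10. Among all genes tested, 44.6% and 55.0% had a higher CPM in the first library of these pairs.

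Per unit of transcript length, the 10 genes spanned a wide range in wild type cells. On the scale of log2 RPKM (reads scaled to transcript length and library size, from TMM-scaled counts with the effect of the file kind removed), *Gfi1* was highest at 3.35 ± 0.31 (SD, n = 3), followed by *Mllt3* at 3.01 ± 0.15. With the file kind effect removed, the wild type ranges of these 2 genes did not overlap, by a narrow margin. Before removal, *Mllt3* had 49.6, 45.3 and 60.2 CPM over 6112 bases in wild type replicates 1 to 3. *Gfi1* had 21.9, 43.9 and 22.1 CPM over 2862 bases. Per base, *Mllt3* was thus higher in wild type replicates 1 and 3 and *Gfi1* in replicate 2. The order of these 2 genes therefore depends on that removal, and it was not tested. *Mycn* (2.46 ± 0.35), *Hlf* (2.46 ± 0.64) and *Pdzk1ip1* (2.42 ± 0.43) could not be ordered among themselves, and *Hmga2* (2.15 ± 0.41) and *Mecom* (1.68 ± 0.40) also overlapped with their neighbours. *Ctnnal1* followed at 1.08 ± 0.35. *Prdm16*, at -0.64 ± 0.09, and *Fgd5*, at -2.09 ± 0.32, lay below all others without overlap.

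In Asxl2-/- cells the order was different. *Pdzk1ip1* (4.01 ± 0.36 log2 RPKM) and *Mycn* (3.92 ± 0.41) were the 2 highest, ahead of *Gfi1* (3.55 ± 0.48) and *Hlf* (3.51 ± 0.45), although all of these ranges overlapped. *Mllt3* (3.11 ± 0.13) stood in 5th place. *Ctnnal1* (2.79 ± 0.26) stood above *Mecom* (2.29 ± 0.38), *Prdm16* was at 1.01 ± 0.26, and *Hmga2* (-0.07 ± 0.32) dropped from 6th to 9th place, next to *Fgd5* (-0.37 ± 0.30). Leaving out 1 library at a time gave a wild type order with a rank correlation of at least 0.891 to the order above, the lowest being without wild type replicate 2.

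**Figure D3:**
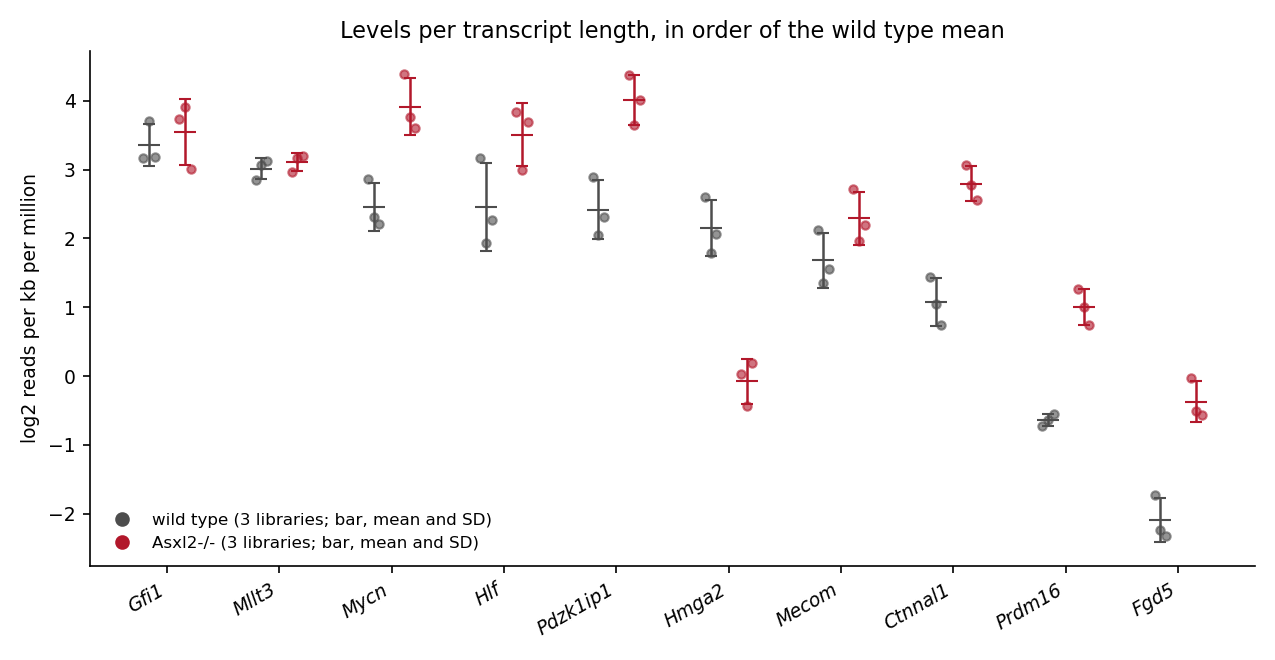
Log2 RPKM of the 10 genes, file kind effect removed, in 3 wild type (grey) and 3 Asxl2-/- (red) libraries; bars give mean and SD, and genes are ordered by the wild type mean. *Hmga2* is the gene whose red points lie below its grey points, and those of *Mllt3* coincide.

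The per-exon files show which parts of each transcript carried the counts, in 1 Asxl2-/- and 2 wild type libraries. Over the 104 exons of the 10 genes, the exact binomial 95% interval of each share of the gene's count was compared between the knockout library and both controls. The knockout interval lay below both without overlap in 3 exons and above both in 1. Of 155240 exons of all genes tested with at least 2 exons, 0.15% lay below and 0.149% above in this way. That background has no floor on counts, and exons with few counts have wide intervals, so it cannot be set directly against the 10 genes. Of the 4 exons among the 10 genes, 3 belonged to *Mllt3*: exon 2 (2.29% against 3.71% and 4.38%), exon 5 (8.16% against 10.8% and 10.3%) and the last exon, 11 (42.8% against 37.5% and 36.2%). As shares of 1 gene these 3 are not independent. The fourth was exon 1 of *Hmga2*, with 4 of 157 counts, or 2.55% (interval 0.698 to 6.39%), against 11.4% and 8.83%. These intervals cover counting error only, and with 1 knockout library there is no test between genotypes.

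The exons that differed in *Mllt3* fall on either side of an internal start. RefSeq lists a full-length transcript of 11 exons and shorter ones that begin at chr4:87806323 on the minus strand and lack the first 5. These 5 exons held 16.2% (interval 14.9 to 17.5%) of the *Mllt3* count in the knockout library and 23.0% (21.4 to 24.6%) and 23.5% (21.9 to 25.1%) in the 2 controls. A related value can be had from both kinds of file: the full-length count minus the count of the shorter transcript with 7 exons, which has all later exons and a first exon of its own, so that the counts of this first exon are subtracted from those of the 5. In the per-transcript files this difference was 17.7% and 14.2% of the *Mllt3* count in Asxl2-/- replicates 1 and 3 and 22.9% in wild type replicate 2. In the per-exon files it was 13.2% in Asxl2-/- replicate 2 and 20.6% and 20.9% in wild type replicates 1 and 3. Each knockout library lay below the controls of its kind.

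This comparison was chosen after the exon shares had been seen, and it was not tested. Of the 338 genes whose second longest listed transcript lay within the span of the longest and had at least 50 fewer counts in every library, 10.9% showed the knockout below the controls in both kinds of file and 15.7% showed the reverse. Over 6387 genes with at least 5 exons and 200 counts, the median share of the last exon was 22.9% in Asxl2-/- replicate 2 and 22.7% and 22.4% in wild type replicates 1 and 3. The knockout library lay above both controls in 38.0% of these genes, as it did for *Mllt3*, and below both in 28.4%. The part of 3′ coverage in the *Mllt3* shares was not tested.

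**Figure D4:**
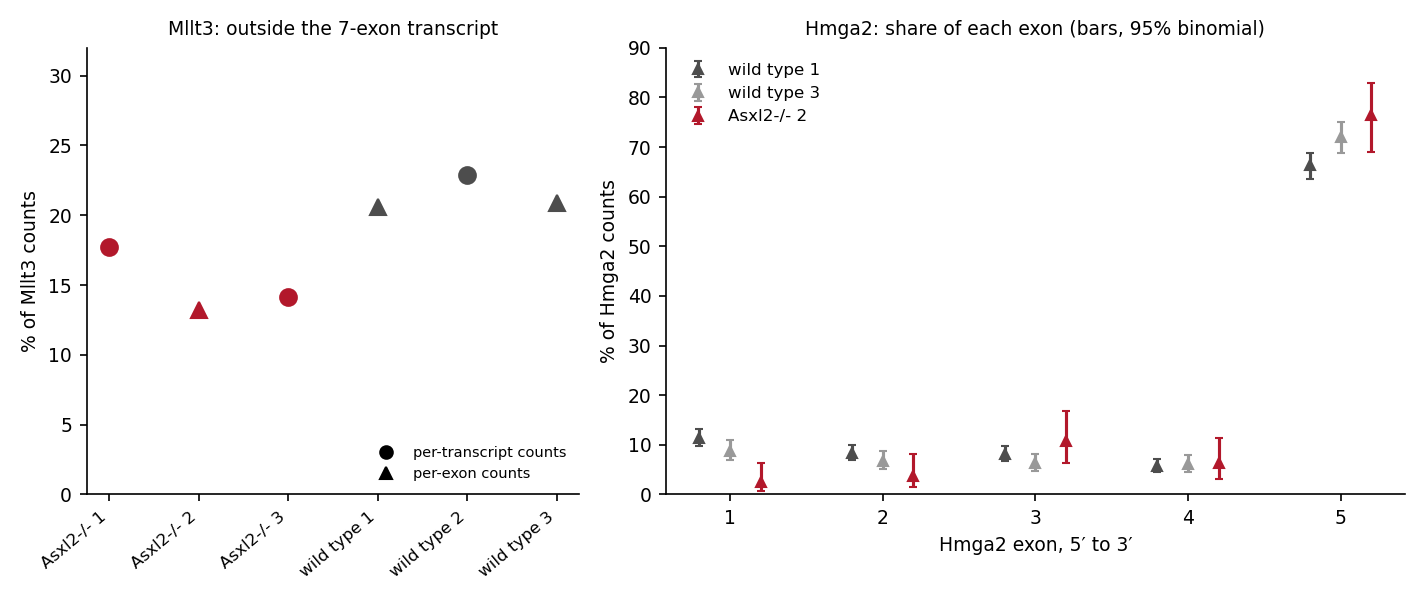
Left, the full-length minus the 7-exon transcript count of *Mllt3*, as a percentage of the full-length count, in each library; like symbols can be compared, with 17.7 and 14.2% (red circles) against 22.9% (grey circle) and 13.2% (red triangle) against 20.6 and 20.9% (grey triangles). Right, the percentage of *Hmga2* counts in each exon in the 3 per-exon libraries, with exact binomial 95% intervals; exon 1 held 2.55% in Asxl2-/- replicate 2 and 11.4% and 8.83% in wild type replicates 1 and 3.

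Genes that act with the 10 were taken from lists of 105 further genes, of which 94 were tested. In all, 6 rose and 1 fell, with a median log2 fold change of 0.14, while 2.04% of all genes tested were raised and 0.304% lowered. Without Asxl2-/- replicate 1 or without wild type replicate 3 the same edgeR test called 0 genes of the lists (30 and 31 at an unadjusted p under 0.05), without Asxl2-/- replicate 3 or wild type replicate 2 it called 2, without Asxl2-/- replicate 2 it called 18 and without wild type replicate 1 it called 20. DESeq2 called 30. Among all genes tested, these fits called 16 of 14618 without Asxl2-/- replicate 1 and 9 of 14140 without wild type replicate 3. They called 96 of 14748 without Asxl2-/- replicate 3 and 124 of 14871 without wild type replicate 2. They called 659 of 14103 without Asxl2-/- replicate 2 and 1312 of 14060 without wild type replicate 1. DESeq2 called 2329 of 14145. The list counts thus cannot be set beside 2.04% and 0.304%. Beside *Hlf* and *Mycn* stand the other factors used to reprogram committed blood cells to stem cells. Of these, 4 were tested, with a median log2 fold change of 1.01. *Runx1t1* and *Zfp37*, 2 further genes of this list, were too low to test.

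The families of the regulators were read beside them. None of the other PAR bZIP genes, PRDM genes, MYC/MAX network genes or AF9 partners passed (0 of 3, 0 of 8, 0 of 11 and 0 of 12 tested), and the smallest p-values among these other PAR bZIP, MYC/MAX and AF9 genes belonged to *Tef* (0.28, adjusted p = 0.338), *Mxi1* (0.36, 0.0758) and *Mllt6* (0.84, 0.0592). At an unadjusted p under 0.05 these lists held 0, 2, 4 and 4 genes, DESeq2 called 0, 1, 4 and 3, and their median log2 fold changes were 0.28, 0.08, -0.03 and -0.04. The same held for the alpha-catenin family (0 of 4), the *Lin28* and *Igf2bp* genes listed with *Hmga2* (0 of 5), the corepressors of GFI1 (0 of 8) and the partners of MAP17 (0 of 3), whose leading genes were *Ctnna1* (0.24, adjusted p = 0.129), *Igf2bp2* (0.43, 0.192), *Ehmt2* (-0.23, 0.139) and *Slc9a3r1* (0.39, 0.113). These lists held 1, 0, 1 and 1 genes at an unadjusted p under 0.05, and DESeq2 called 0, 0, 1 and 0. Among all genes tested 2.34% passed and 27.7% had an unadjusted p under 0.05, so calls this few are no result about these families.

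The relatives of *Fgd5* moved in both directions. *Fgd6* had 110, 169 and 141 counts in Asxl2-/- and 591, 334 and 613 in wild type cells, and fell by 1.66 on the log2 scale (SE 0.211, adjusted p = 0.0258). *Fgd1* rose by 1.04 (SE 0.146, adjusted p = 0.0319). Both are exchange factors for CDC42 like *Fgd5* itself, and the remaining 4 genes of the list did not pass (5 of all 6 had an unadjusted p under 0.05, and DESeq2 called 4). Among all genes tested 2.34% passed and 27.7% had an unadjusted p under 0.05.

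Other genes known to be enriched in long-term stem cells leaned in the direction of *Prdm16* and *Ctnnal1*. Across all 14145 genes tested, 2.04% were raised and 0.304% lowered, 27.7% had an unadjusted p under 0.05, and DESeq2 called 2329. Of the 19 genes enriched in long-term stem cells, all tested, 4 rose and 0 fell (14 at an unadjusted p under 0.05, 12 called by DESeq2), and the median log2 fold change was 0.84. Among the 4 were *Vwf* (2.17, SE 0.234, adjusted p = 0.0190), which marks platelet-biased stem cells, *Slamf1* (1.52, SE 0.170, adjusted p = 0.0196), which codes for the stem cell surface marker CD150, and *Cdkn1c*, the cell cycle inhibitor p57 (2.96, SE 0.442, adjusted p = 0.0345). Of 12 genes of multipotent and lymphoid-primed progenitors 0 passed in either direction (3 at an unadjusted p under 0.05, 2 called by DESeq2), with a median of 0.13 and *Il7r* as the leading gene (1.39, adjusted p = 0.0528). Whether the stem cell list differed from the progenitor list was not tested.

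**Figure D5:**
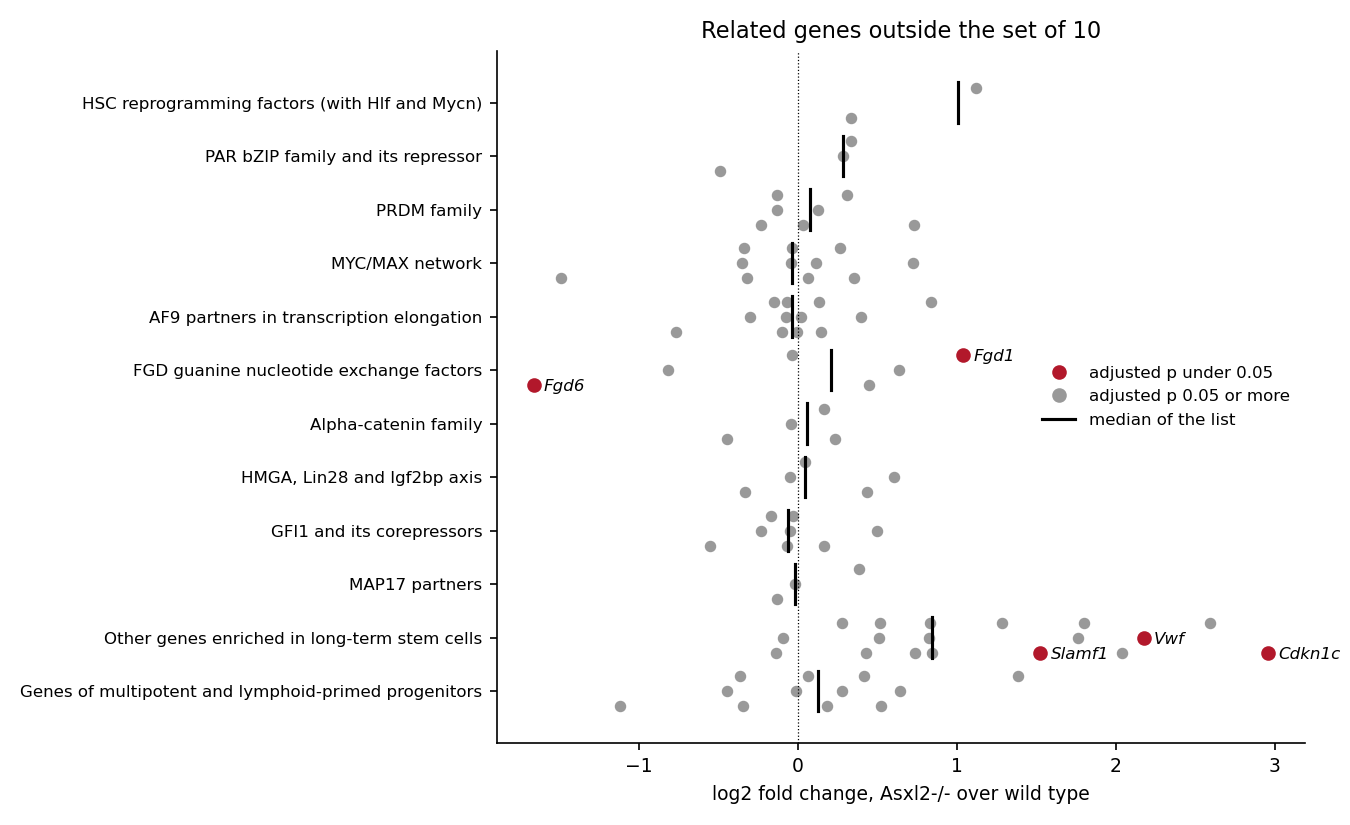
Log2 fold changes, Asxl2-/- over wild type, of the tested genes of 12 related lists, without the 10 genes themselves; red points passed an adjusted p of 0.05 and black lines are the medians of all genes tested in a list; genes not reported here are not drawn. The long-term stem cell list, with a median of 0.84, and the reprogramming factors, with 1.01, lie farthest to the right.

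Markers of other cells that an LSK sort could hold were read beside these results. Of the megakaryocyte markers 6 of 11 tested rose, and their summed level was 617 to 728 CPM in Asxl2-/- and 245 to 356 CPM in wild type libraries. Of the B cell markers 8 of 10 rose (194 to 199 against 45.6 to 68.3 CPM). Across all genes tested 2.04% were raised and 0.304% lowered. *Vwf* stands in both the megakaryocyte and the long-term stem cell list. Endothelial cells also express several stem cell genes. Their markers summed to 144 to 187 CPM in Asxl2-/- and 104 to 123 CPM in wild type cells with 0 of 8 tested raised, and 6 of the 8 had a positive log2 fold change. *Emcn*, *Tie1* and *Plvap*, named after their values were seen, had log2 fold changes of 1.66, 1.09 and 0.75 (unadjusted p of 0.00436, 0.00679 and 0.0397, adjusted p of 0.0740, 0.0837 and 0.162). The other tested genes of the list were *Cdh5* (0.94), *Stab2* (0.87), *Pecam1* (0.20), *Kdr* (-0.31) and *Flt4* (-0.88). *Cldn5* and *Sox17*, the genes of this list that were too low to test, had at most 3 counts in every library. Of the erythroid markers 0 of 12 passed, with a median log2 fold change of -0.97 and summed levels of 875 to 1695 against 2298 to 3166 CPM. *Hbb-b1* and *Hbb-bs*, both among the 12, had the same counts in every library, so the same measurement enters these values more than once. Of the neutrophil and monocyte markers 1 of 11 rose (2423 to 6849 against 2625 to 7758 CPM), 0 of 9 T and NK cell markers passed (23.0 to 33.2 against 27.1 to 36.3 CPM), and 0 of 9 marrow stroma markers passed (121 to 395 against 58.0 to 169 CPM). Unadjusted p-values under 0.05 and DESeq2 calls, respectively, numbered 3 and 2 of the endothelial, 6 and 5 of the erythroid, 1 and 1 of the T and NK cell and 0 and 0 of the stroma markers. Among all 14145 genes tested 27.7% had such an unadjusted p, and DESeq2 called 2329. The part of these shifts in the levels of the 10 genes was not tested.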

How the data were processed

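RNA was poly(A)-selected and sequenced without strand information by the authors, who deposited raw counts of reads per RefSeq transcript (3 files) or per exon (3 files) on mm10. The submitters' processing notes name STAR, featureCounts and DESeq2 without versions, and the methods name Cuffdiff. Each symbol was represented by its transcript with the longest summed exons (4914 of 24063 symbols list several), and exon counts were summed. No exon of the 10 genes overlapped another gene. Counts were tested with edgeR 4.0.16 in R 4.3.3 (glmQLFit, glmQLFTest, TMM, filterByExpr, file kind plus genotype, 3 residual degrees of freedom). All p-values were two-sided and adjusted by Benjamini-Hochberg with a threshold of 0.05. Per-length and summed levels are log2 RPKM or CPM (prior count 2) with the fitted file kind effect removed (limma 3.58.1), which narrows their SDs. Exon shares carry exact 95% binomial intervals (scipy 1.17.1, Python 3.11.15), for counting error only. The script was tested on simulated data.

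The members and lists were chosen with earlier results of these data known. Named genes were all 10 members, from each related list the non-members past the threshold (at most 4) or else the one with the smallest p, and the check genes, of which 3 related genes are not reported here. Group came from the labels. Alternatives were other scalings, DESeq2 1.42.0, limma-voom, filters, the covariate, replicate blocks, other transcripts or exons, and leaving out each library. The labels number replicates 1 to 3 in both groups, and correlations of same-numbered deviations from the group means were 0.294, -0.00766 and -0.00277. Same-numbered libraries were of opposite file kinds and the kind effect was left in, so these values cannot decide whether the numbers mark pairs. Replicates 1 and 3 share a kind within each group, and their differences had a correlation of 0.337 between the groups across genes. The main fit did not take the numbers as pairs, and pairing was not tested. No 2 libraries agreed within sampling noise (lowest chi-square per degree of freedom 24.1).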

Additional observations from a re-analysis of the deposited data

How the results depend on the processing

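The file kinds are unevenly spread over the groups, sex and genotype cannot be told apart, and 3 libraries a group limit what can be called. Of 190 alternative fits of single genes among the 10, 157 kept direction and side of the threshold, 11 lost the threshold, 19 gained it and 3 reversed.

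The 3 calls among the 10 genes became 1 with library size only, 7 with DESeq2 (6 raised, 1 lowered), 8 with the replicate block with the file kind and 5 with the replicate block alone, and ranged from 0 to 6 with 1 library left out. The 331 calls among all genes (288 raised, 43 lowered) became 161, 2329 (1181 raised, 1148 lowered) and 5179 (2767 raised, 2412 lowered) with library size only, DESeq2 and the block with file kind, and ranged from 9 to 1312 with 1 library left out. The block with file kind leaves 1 residual degree of freedom. The 7 calls among related genes became 4, 30 and 52, and ranged from 0 to 20. The causes were not tested.

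Reversed log2 fold changes were those of *Mllt3* without the file kind (-0.0105) and with the block alone (-0.0207), *Gfi1* without Asxl2-/- replicate 2 and in per-transcript files (-0.336), *Kit* and *Tef* without wild type replicate 2, and *Ptprc* with median-ratio scaling (-0.0045), DESeq2 (-0.0043), or without Asxl2-/- replicate 2 or wild type replicate 3. With 1 library left out, *Gfi1* ranged from -0.290 to 0.73, *Kit* from -0.131 to 0.59, *Ptprc* from -0.128 to 0.22 (-0.0157 without wild type replicate 3) and *Tef* from -0.0430 to 0.62. The order of the levels per length kept rank correlations of 0.891 to 1 with 1 library left out. The difference in the share of *Hmga2* exon 1, knockout minus the mean of the controls, was -7.55 percentage points of the gene and -17.2 among neighbouring exons. The second value rests on 4 of 10 counts in Asxl2-/- replicate 2, a share with a wide counting error. The controls had 57.5% of 252 counts in wild type replicate 1 and 56.8% of 125 in wild type replicate 3.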
